A study of Homo sapiens with 19 samples.

Results

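The regions described here are 734 stretches of chromatin, far from gene starts, at which MOLM-13 leukaemia cells had H3K4me2 peaks after treatment with Corin and none in the vehicle, and which also had H3K27ac peaks after Corin. They were found by merging the 4 H3K4me2 peak lists into 42421 union regions. A region was kept when both Corin lists and neither DMSO list had a peak in it, when it lay more than 1 kb from each of 84610 annotated transcription start sites (TSS), both protein-coding and lncRNA, and when a peak of both Corin H3K27ac lists overlapped it by at least 1 bp. Of the union regions, 4089 had H3K4me2 in both Corin lists and neither DMSO list, which is 9.64% of all. Among these 360 lay within 1 kb of a TSS and 3729 were distal, or 15.3% of the 24328 distal union regions. H3K27ac was called in both Corin lists at 734 of the distal ones, in 1 Corin list at 662, and in neither at 2333. The regions were thus selected on peak presence in the H3K4me2 lists and in the Corin H3K27ac lists, and these values are given as a description, with no test.

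MOLM-13 is a human acute myeloid leukaemia line with a KMT2A-MLLT3 fusion and an internal tandem duplication in FLT3. The treated cells received Corin, 0.1 µM for 24 h per the labels, and the controls received the vehicle DMSO for the same time, with the same concentration on their labels, where its meaning is not clear. Marks were mapped by CUT&RUN, in which an antibody brings a nuclease to the modified histone and the released DNA is sequenced, with 2 libraries per mark and treatment. The labels do not say whether the replicates were separate cultures, so the spread between them may be technical. Another 7 of the 19 libraries, namely 2 IgG controls, 1 LSD1 library and 4 that combine all-trans retinoic acid and Corin, were not analysed here.

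Corin joins an inhibitor of the demethylase LSD1 and an inhibitor of class I histone deacetylases in the same molecule, and was made to act on the CoREST complex, which holds both enzymes. LSD1 removes methyl groups from mono- and dimethylated H3K4, and the deacetylases HDAC1 and HDAC2 remove acetyl groups from histone tails, H3K27 among them. H3K4me2 marks promoters and enhancers, H3K27ac marks those that are active, and H3K4me3 lies mainly at promoters. In myeloid cells CoREST is brought to DNA by the repressors GFI1 and GFI1B, and its targets include enhancers bound by PU.1, C/EBP and RUNX1.

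The sequences below are from the members with the longest stretch covered at once by the 4 Corin peaks of H3K4me2 and H3K27ac, up to 746 bp, with at most 1 member per nearest gene. Each shows the 150 bases of that stretch that hold the most kinds of 14 short binding motifs searched on both strands. Coordinates are hg38, each run is the + strand from 5′ to 3′, and each is named after the nearest protein-coding gene. Capitals mark motif matches in either direction. The motifs found in them are PU.1 (GAGGAAGT), C/EBP (TTGCNNAA), AP-1 (TGANTCA), STAT (TTCNNNGAA), NF-kB (GGANTTNCC), the ETS-IRF composite (GAANNGAAA) and the core hexamer of nuclear receptors (AGGTCA). A single copy of that hexamer is not a full retinoic acid response element.
GSE1, chr16:85563711-85563860, + strand: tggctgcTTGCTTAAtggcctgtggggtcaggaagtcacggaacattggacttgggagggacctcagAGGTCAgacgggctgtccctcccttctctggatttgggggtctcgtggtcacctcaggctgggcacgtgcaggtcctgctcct
PLCG2, chr16:81796254-81796403, + strand: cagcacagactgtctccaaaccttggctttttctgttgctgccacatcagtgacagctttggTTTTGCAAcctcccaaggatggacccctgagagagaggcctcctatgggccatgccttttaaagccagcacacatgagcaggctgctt
B3GNT7, chr2:231299927-231300076, + strand: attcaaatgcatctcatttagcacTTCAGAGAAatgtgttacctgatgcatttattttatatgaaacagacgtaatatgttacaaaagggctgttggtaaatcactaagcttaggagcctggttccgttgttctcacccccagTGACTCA
EVL, chr14:100076555-100076704, + strand: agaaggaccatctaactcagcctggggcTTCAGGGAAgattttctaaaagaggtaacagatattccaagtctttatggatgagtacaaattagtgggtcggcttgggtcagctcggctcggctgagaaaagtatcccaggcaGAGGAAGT
TNFRSF1B, chr1:12173502-12173651, + strand: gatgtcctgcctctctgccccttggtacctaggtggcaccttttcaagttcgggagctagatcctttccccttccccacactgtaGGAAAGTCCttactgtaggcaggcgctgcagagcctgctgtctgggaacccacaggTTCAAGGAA
URAD, chr13:28031611-28031760, + strand: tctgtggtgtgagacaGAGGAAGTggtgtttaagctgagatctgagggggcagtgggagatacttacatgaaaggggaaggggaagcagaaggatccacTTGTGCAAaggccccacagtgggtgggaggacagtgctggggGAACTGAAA
The GSE1 run holds a C/EBP and a nuclear receptor hexamer match, and PLCG2 a C/EBP match. B3GNT7 holds AP-1 and STAT matches, EVL PU.1 and STAT, and TNFRSF1B NF-kB and STAT. The run at URAD, which lies inside an intron of FLT3, has PU.1, C/EBP and ETS-IRF matches and is the only 1 of these 6 with 3 kinds. A match is a description of the letters and does not show that a factor was bound.

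The motif of GFI1 (AATCACNGC, both strands), the repressor that recruits LSD1, was present in the central 500 bp of 26 of the 734 members, or 3.54%. The 6 examples below show it, in capitals, with 16 bases on each side. They were chosen after their values were seen, from windows without the Alu letters and with little resemblance to the repeat, and are printed on the strand that carries the motif.
STPG4, chr2:47071471-47071511, - strand: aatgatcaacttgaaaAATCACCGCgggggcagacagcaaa
ECHDC1, chr6:127366432-127366472, + strand: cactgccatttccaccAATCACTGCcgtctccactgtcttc
AFF1, chr4:87046021-87046061, + strand: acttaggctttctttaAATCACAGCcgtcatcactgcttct
SDCCAG8, chr1:243287754-243287794, - strand: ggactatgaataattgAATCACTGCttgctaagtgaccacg
IL1RAP, chr3:190586489-190586529, - strand: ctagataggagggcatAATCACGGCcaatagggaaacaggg
LYST, chr1:235846259-235846299, + strand: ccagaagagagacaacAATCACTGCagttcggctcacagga
The members at STPG4, ECHDC1 and LYST had no H3K27ac peak in either DMSO list, and those at AFF1, SDCCAG8 and IL1RAP had 1 in a single DMSO list.

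The files hold peak positions and a whole-number score per peak, no read counts, so the depth behind a peak is unknown beyond the minimum of 5000000 paired reads of 150 bp per library that the labels state. Peaks numbered 40042 to 41152 in the Corin and 30896 to 32299 in the DMSO lists for H3K4me2, 30029 to 34424 against 17599 to 19995 for H3K27ac, and 11757 to 11883 against 11104 to 11343 for H3K4me3. The Corin lists were thus longer for each mark, and a region without a peak may still carry the mark at a level that was not called. In cells taken in bulk, a mark in fewer cells and less of the mark in each cell cannot be told apart. Of 8 myeloid marker genes, 6 (CD33, SPI1, CEBPA, FLT3, LYZ and CSF3R) had H3K4me3 within 1 kb of the TSS in both DMSO lists, MPO and ITGAM had it in neither, and the 13 B, T, erythroid, megakaryocyte and neuronal markers had none in either.

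Part of the members had H3K27ac peaks in DMSO cells too. H3K27ac peaks lay at 268 members (36.5%) in DMSO 1 and at 298 (40.6%) in DMSO 2, a mean of 38.6% ± 2.89 (SD, n = 2). Where a peak had to cover at least 50% of the region, the mean was 24.7%. At 335 members (45.6%) neither DMSO list had H3K27ac, at 232 (31.6%) 1 list had it, and at 167 (22.8%) both had it. Gain of both marks together, the pattern after which the regions are labelled, thus holds in full for these 335, while at 399 of 734 (54.4%) at least 1 DMSO list had H3K27ac. For the distal union regions as a whole, 29.7% had H3K27ac in both Corin lists and 7.09% had it in both Corin lists and neither DMSO list.

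Beside the members, the 2333 distal regions that also had H3K4me2 in both Corin lists only, but H3K27ac in neither Corin list (called regions gained without H3K27ac from here on), had H3K27ac in 1.07% and 0.772% in DMSO 1 and 2. The 4366 distal regions with H3K4me2 in all 4 lists and H3K27ac in both Corin lists (called regions in all 4 lists) had it in 68.3% and 73.4%. The members lay between these groups in both DMSO lists, above the 21.3% and 22.3% of all distal regions. No test over regions was made, because regions of the same library are not replicates.

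**Figure D1:**
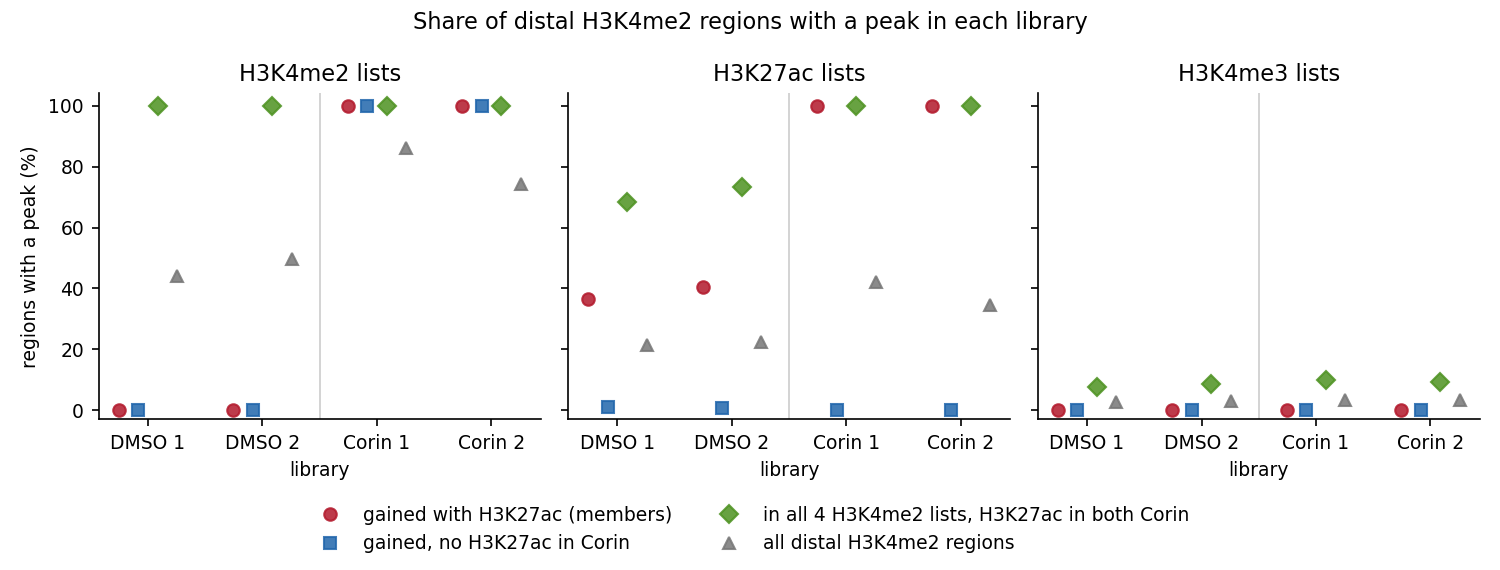
Percent of distal H3K4me2 regions with a peak in each of the 12 libraries, for the 734 members, the regions gained without H3K27ac in Corin, the regions in all 4 H3K4me2 lists with H3K27ac in both Corin lists, and all distal regions. Values of 0 and 100% in the H3K4me2 panel and in the Corin libraries of the H3K27ac panel follow from the selection. The members have H3K27ac at 36.5% and 40.6% in the DMSO libraries and no H3K4me3 in any library.

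Measured by length, H3K4me2 peaks covered 425 kb of the members in Corin 1 and 353 kb in Corin 2, of 492 kb in all, and none in DMSO. H3K27ac peaks covered 347 and 287 kb in Corin 1 and 2 and 99.2 and 111 kb in DMSO 1 and 2. These are 70.5%, 58.3%, 20.1% and 22.5% of the members' length. The Corin and DMSO values do not overlap for either mark, which the selection fixes for H3K4me2 and favours for H3K27ac.

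H3K4me3, which the selection did not use, was absent from the members' peak calls. None of the 734 members overlapped an H3K4me3 peak in Corin 1, Corin 2, DMSO 1 or DMSO 2, so both groups stood at 0 bp and no ratio or test could be formed. Among all distal regions 4.09% had H3K4me3 in at least 1 of the 4 lists. In the regions with H3K4me2 in all 4 lists and H3K27ac in both Corin lists, the share was 9.92% and 9.32% in Corin and 7.72% and 8.52% in DMSO. Regions gained without H3K27ac resembled the members here, with a single region of 2333 and 301 bp in Corin 1.

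The H3K4me2 peaks of the members ranked low within their lists, and the members' width was near that of all distal regions. Their median width was 607 bp (quartiles 447 and 826 bp, range 211 to 2561 bp), against 558 bp for regions gained without H3K27ac, 1407 bp for those in all 4 lists and 620 bp for all distal regions. Within each Corin list, a peak's score was turned into the percentile of its rank. The H3K4me2 peaks of the members had a median percentile of 24.3 in Corin 1 and 22.2 in Corin 2 and did not pass 84.1 and 86.7. Regions gained without H3K27ac had 24.9 and 21.7, close to the members, while regions in all 4 lists had 69.3 and 67.6. When the lists of a mark were trimmed by score to the same number of peaks, 113 regions met the selection, and 103 of them overlapped members. The H3K27ac peaks of the members ranked higher in their lists, with medians of 62.2 and 52.7, beside 77.6 and 71.3 for the regions in all 4 lists.

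The rank of the acetylation followed its presence in DMSO, and that of H3K4me2 did not. Members with H3K27ac in 0, 1 and 2 DMSO lists had median H3K27ac percentiles of 46.4, 64.0 and 82.9 in Corin 1 and of 40.2, 54.2 and 70.2 in Corin 2. Their median H3K4me2 percentiles were 24.9, 23.3 and 24.7 in Corin 1 and 25.7, 20.7 and 21.3 in Corin 2. The length under H3K27ac peaks had the same order, with medians of 369, 448 and 540 bp in Corin 1 and 308, 356.5 and 442 bp in Corin 2, although the regions themselves were widest where DMSO had no H3K27ac, at 638, 606.5 and 573 bp. Corin H3K27ac is part of the selection, so these are descriptions of the members.

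**Figure D2:**
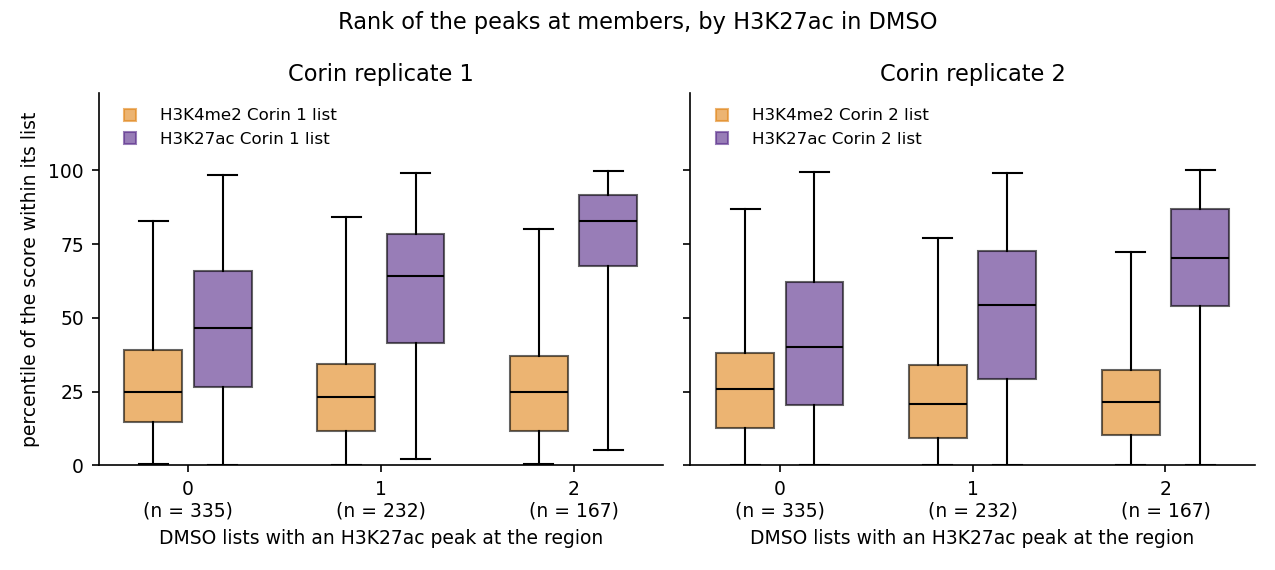
Percentile of the peak score within its own list for the H3K4me2 and H3K27ac peaks at the 734 members, by the number of DMSO lists with H3K27ac at the region (335, 232 and 167 members), for Corin replicates 1 and 2. Boxes span the quartiles, the line is the median and whiskers reach the lowest and highest value. H3K27ac medians step up from 46.4 to 82.9 and from 40.2 to 70.2, while H3K4me2 medians stay between 20.7 and 25.7.

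The 2 marks shared ground within most members. A stretch covered by all 4 Corin peaks existed in 667 members and was lacking in 67, and its median length was 206 bp (quartiles 125 and 294 bp) over all members. H3K27ac peaks reached beyond the H3K4me2 region in both Corin lists at 463 members. Between the replicates, the length under peaks had a Spearman correlation across members of 0.486 for H3K4me2 and 0.507 for H3K27ac, given as a description over 734 regions of the same libraries. H3K4me2 covered more of the member in Corin 1 at 484 members and in Corin 2 at 250, and H3K27ac did so at 458 and 189. Median lengths were 512.5 and 425 bp for H3K4me2 and 428 and 346 bp for H3K27ac, so Corin 1 was the wider library for both marks.

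The members closest to any annotated TSS lay 1006, 1011 and 1046 bp from it, and the closest excluded ones 980, 937 and 903 bp, with 60 regions left out by that distance alone. The smallest overlaps with H3K27ac were 7 bp at SMOX, 19 bp at SASH1 and 27 bp at ST3GAL4, and 27 members overlapped by less than 100 bp. On the other side, the excluded regions at RXFP4 and UQCRC1 missed the second H3K27ac peak by 3 bp and that at MBNL1 by 6 bp, and 134 excluded regions missed it by less than 500 bp.

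In the genome, the members were mostly intronic. An intron held 472 (64.3%), an exon 50 (6.81%) and 212 (28.9%) were intergenic. For regions gained without H3K27ac the shares were 53.3%, 7.42% and 39.3%, for regions in all 4 lists 56.5%, 13.4% and 30.1%, and for all distal regions 56.3%, 10.3% and 33.4%. The median distance to the nearest protein-coding TSS was 23.8 kb (quartiles 9.37 and 64.5 kb), near the 22.9, 21.6 and 22.1 kb of those groups. The members thus had a larger intronic share than each of the 3 groups and a similar distance to genes.

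Most members lay apart from the H3K4me2 of DMSO cells. The nearest DMSO H3K4me2 peak was at a median of 4980 bp (quartiles 1420 and 17773 bp, range 3 to 878464 bp). It was within 1 kb for 142 members (19.3%) and beyond 5 kb for 367 of the 734. Regions gained without H3K27ac were further away, at a median of 8769 bp, with 320 (13.7%) within 1 kb and 1457 of 2333 beyond 5 kb.

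**Figure D3:**
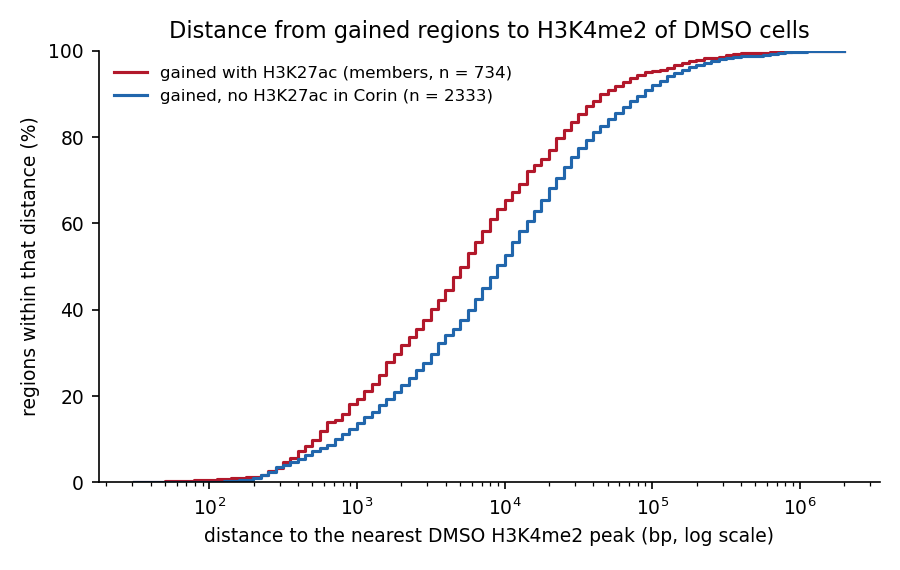
Cumulative percent of regions (y axis) within a given distance of the nearest H3K4me2 peak of the DMSO lists (x axis, bp, log scale), for the 734 members and for the 2333 distal regions gained without H3K27ac in Corin. The members' curve lies to the left, with medians of 4980 and 8769 bp.

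The 12 members with the longest shared stretch show the range of acetylation in DMSO. Of them 2 had H3K27ac in no DMSO list, 4 in 1 and 6 in both, and by the selection none had H3K4me2 in DMSO. The lead region was intronic in GSE1 (chr16:85563534-85564840), whose product is itself a CoREST-associated protein. H3K4me2 covered 1130 and 923 bp of it in Corin 1 and 2, and H3K27ac 1274 and 1246 bp in Corin and 464 and 482 bp in DMSO. Its acetylation was present in both DMSO libraries and wider in both Corin libraries. The nearest DMSO H3K4me2 peak lay 411 bp from this region.

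Among the 12 were members in introns of the signalling genes PLCG2, TNFRSF1B and FLT3. PLCG2, a phospholipase of receptor signalling, had an intronic member (chr16:81796090-81797826) with 1625 and 1185 bp of H3K4me2 in Corin, 1483 and 1351 bp of H3K27ac in Corin, and 784 and 0 bp of H3K27ac in DMSO. TNFRSF1B, a receptor for tumour necrosis factor, had an intronic member (chr1:12173066-12174139) with 1074 and 791 bp of H3K4me2, 632 and 729 bp of H3K27ac in Corin and 212 and 0 bp in DMSO. The 2 DMSO libraries disagreed at both genes, with the mark called in DMSO 1 only. The member inside an intron of FLT3, the receptor tyrosine kinase mutated in this line, lay 68503 bp from the FLT3 start (chr13:28031366-28032073), while the nearest start is that of URAD. It had 689 and 623 bp of H3K4me2, 708 and 708 bp of H3K27ac in Corin, and 210 and 629 bp in DMSO. The nearest DMSO H3K4me2 peak lay 444 bp from the PLCG2 member, 2521 bp from that at TNFRSF1B and 61450 bp from that in FLT3.

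Another 3 of the 12 had H3K27ac in a part of the DMSO libraries or in both. At NFE2L2, the oxidative stress factor NRF2, the intronic member (chr2:177245150-177246279) had 1082 and 1130 bp of H3K4me2, 710 and 930 bp of H3K27ac in Corin and 1096 and 0 bp in DMSO, so DMSO 1 exceeded both Corin libraries. The member in an intron of ARMC9, nearest to B3GNT7, a glycosyltransferase gene (chr2:231299491-231300534), had 694 and 1044 bp of H3K4me2, 1044 and 939 bp of H3K27ac and 206 and 0 bp in DMSO. That in EVL, an actin regulator (chr14:100076137-100076991), had 855 and 742 bp of H3K4me2, 855 and 625 bp of H3K27ac in Corin, and 658 and 483 bp in DMSO. At EVL the DMSO 1 value lies between the Corin values, so the groups overlap. The H3K27ac peaks at EVL ranked at percentile 88.1 in Corin 1 and 4.6 in Corin 2.

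Only 2 of the 12 had no H3K27ac in DMSO. The member in an exon of PKD2L1, nearest to BLOC1S2 (chr10:100290534-100292427), had 1587 and 1866 bp of H3K4me2, the most of the 12 in Corin 2, with 791 and 621 bp of H3K27ac. Its H3K27ac peaks ranked at percentile 49.5 in Corin 1 and 1.3 in Corin 2. The other was intronic in SHISA5 (chr3:48469916-48470740), with 706 and 717 bp of H3K4me2 and 719 and 825 bp of H3K27ac. Among the 12, the H3K4me2 lengths of the replicates were closest at SHISA5.

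The last 3 of the 12, at EXT1, GSDMC and AGO2, had H3K27ac in both DMSO libraries. AGO2, the slicer of the microRNA pathway, had an intronic member (chr8:140573400-140574239) with 840 and 579 bp of H3K4me2, 840 and 745 bp of H3K27ac in Corin and 736 and 379 bp in DMSO. The intergenic member near EXT1, an enzyme of heparan sulfate synthesis (chr8:118187546-118188577), had 1032 and 580 bp of H3K4me2, 1032 and 1032 bp of H3K27ac in Corin and 643 and 1028 bp in DMSO. The member nearest to GSDMC lay in an intron of the non-coding gene CCDC26 (chr8:129551893-129552893). H3K27ac covered all of its 1001 bp in each of the 4 libraries, and H3K4me2 946 and 634 bp in Corin only. At this member the acetylated length was the same in each library, and only H3K4me2 was called after Corin alone.

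**Figure D4:**
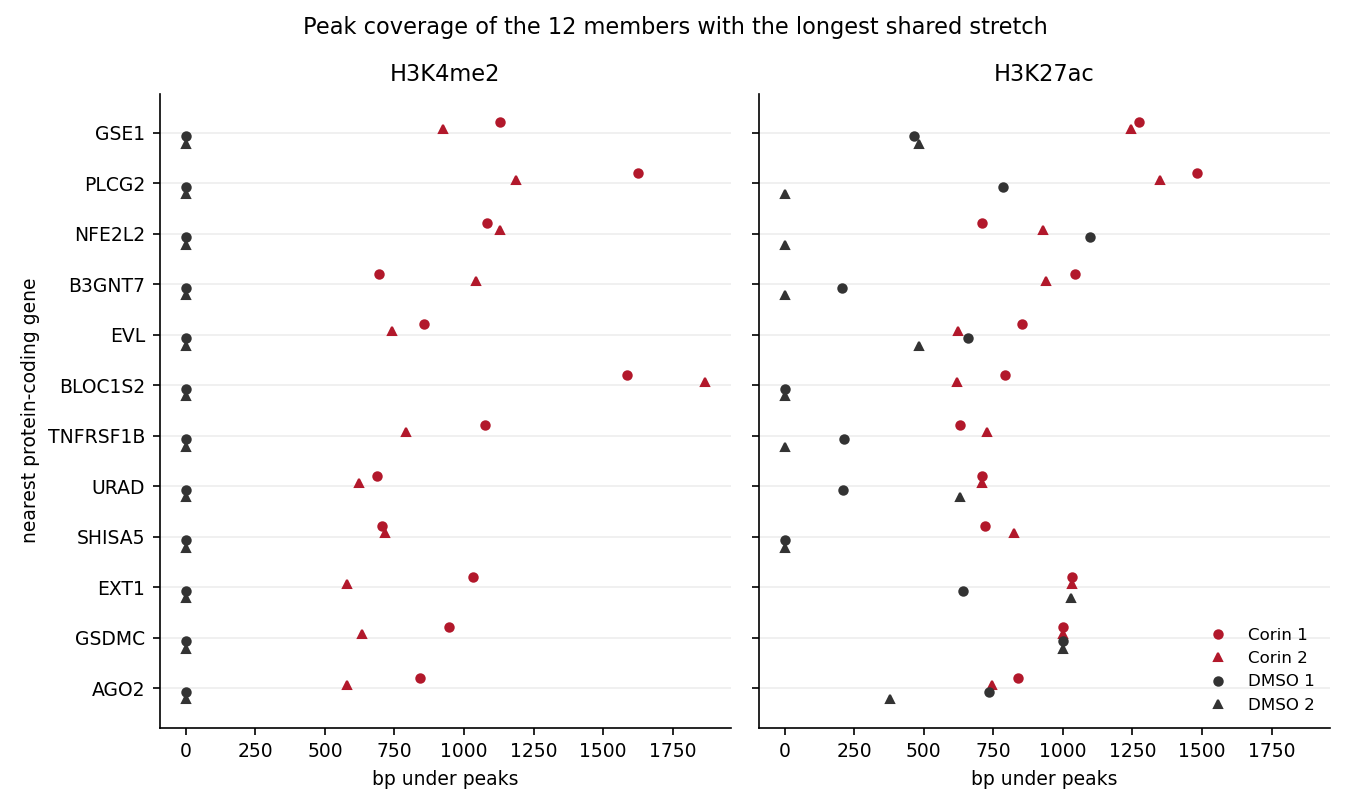
Length under peaks (bp) of H3K4me2 (left) and H3K27ac (right) in the 12 members with the longest shared stretch, named by the nearest protein-coding gene, in Corin 1 and 2 (red) and DMSO 1 and 2 (dark). Circles are replicate 1 and triangles replicate 2. H3K4me2 is 0 in DMSO at each by selection. H3K27ac is 0 in both DMSO libraries at BLOC1S2 and SHISA5, covers the full 1001 bp in both at GSDMC, and is longest in DMSO 1 at NFE2L2 (1096 bp).

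Most members stood alone. At most 50 kb from the next member lay 164 of the 734 (22.3%), in 73 clusters, and 570 stood alone. There were 14 clusters of at least 3 and 4 clusters of 4. RBM47, an RNA-binding protein gene, had 4 intronic members over 46.2 kb (chr4:40576489-40622695), 3 of them without H3K27ac in DMSO. ELF1, an ETS factor of blood cells, had 4 over 12.9 kb (chr13:40999356-41012269), 2 of them without. At CHRAC1 and AGO2, and in CCDC26 on the GSDMC side, 4 members each had H3K27ac in at least 1 DMSO list. The CCDC26 cluster (chr8:129489171-129552893) had H3K27ac in both DMSO lists at all 4 members and lies 1.75 Mb from the MYC start. ASGR2, a lectin gene, had the most compact cluster of at least 3, with 3 members over 2.83 kb, none with H3K27ac in DMSO. CHRAC1 and ASGR2 are outside the naming rule and were named after their values were seen.

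The nearest protein-coding gene of the members was 1 of 624, which is 3.11% of the 20033 genes with an annotated start. Of these 539 had 1 member, 64 had 2 and 21 had 3 or more, up to 4 at GSDMC, LYST, RBM47 and ELF1. Inside their nearest gene lay 364 of the members. LYST is the lysosomal trafficking gene of Chediak-Higashi syndrome. Another 17 genes had 3 each, of which GPCPD1, RREB1, EFCAB2 and RASA3 had the longest shared stretches. RASA3 is a Ras GTPase-activating protein, and RREB1 a zinc finger factor downstream of Ras.

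Of 18 gene lists, 14 fit this cell type and treatment and 4 hold genes of other lineages. Of their 218 genes, 25 (11.5%) were nearest to a member, all of them among the 176 genes of the 14 lists. This stands beside the 3.11% of all genes, and no test of the lists was made. The lists were chosen to fit these cells, with earlier results of these data known. The difference from all genes is thus a description only. The stem and progenitor factors of MLL-rearranged leukaemia had 6 of 15, the chemokine and chemoattractant receptors 4 of 12, the myeloid transcription factors 3 of 16 and the cytokine receptors and feedback genes 3 of 14. The retinoic acid pathway had 2 of 13 and the primary granule genes 2 of 14. Monocyte surface markers had 1 of 16, toll-like receptor and inflammasome genes 1 of 12, phagocyte oxidase 1 of 6, integrins and myosins 1 of 10 and CoREST partners 1 of 12. Interferon genes (0 of 14), antigen presentation (0 of 10), AP-1 genes (0 of 12) and the erythroid, B, T and neuronal lists (0 of 10, 0 of 10, 0 of 12 and 0 of 10) had none.

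The 6 progenitor genes were MEF2C, MYB, MYC, CDK6, CD34 and LMO2. MYB, a factor on which this leukaemia depends, had an exonic member (chr6:135190132-135191065) with 934 and 524 bp of H3K4me2, 913 and 900 bp of H3K27ac in Corin, and 642 and 533 bp in DMSO. CDK6, a cell cycle kinase, had an intronic one (chr7:92793637-92794744) with 1108 and 918 bp of H3K4me2 and 1099 and 267 bp of H3K27ac, and none in DMSO. At MYC the member lay in an intron of PVT1, 93590 bp from the MYC start (chr8:127831335-127832039), with 548 and 645 bp of H3K4me2, 585 and 420 bp of H3K27ac in Corin and 0 and 575 bp in DMSO. The member near CD34, a progenitor surface marker, had 1097 and 473 bp of H3K4me2, 752 and 419 bp of H3K27ac in Corin and 0 and 358 bp in DMSO. Acetylation in DMSO was thus present in both libraries at MYB, in DMSO 2 alone at MYC and CD34, and in neither at CDK6. The nearest DMSO H3K4me2 peak lay 216 bp from the member at MYB and 77 bp from that near CD34. It lay 11424 bp away at CDK6 and 18933 bp away at MYC.

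Among transcription factors, GFI1, which brings LSD1 to DNA, had an intergenic member 23093 bp from its start (chr1:92460266-92460861) with 573 and 499 bp of H3K4me2, 596 and 505 bp of H3K27ac in Corin and 351 and 516 bp in DMSO. RUNX1, a core factor of blood formation, had 2 members, and the longer shared stretch was intronic (chr21:34867535-34868235) with 651 and 499 bp of H3K4me2, 350 and 424 bp of H3K27ac and none in DMSO. IRF8, a factor of monocyte fate, had 224 and 197 bp of H3K4me2, 228 and 253 bp of H3K27ac in Corin and 253 and 0 bp in DMSO. The groups overlap at GFI1 and IRF8 for H3K27ac, and do not at RUNX1. The H3K27ac peak of Corin 2 at RUNX1 ranked at percentile 3.3 of its list, and the H3K4me2 peak of Corin 2 at GFI1 at 0.2. ZNF217, a CoREST-associated zinc finger protein, had a member with 483 and 370 bp of H3K4me2, 553 and 303 bp of H3K27ac in Corin and 295 and 485 bp in DMSO. The nearest DMSO H3K4me2 peak was 397 bp away at GFI1, 12221 bp at RUNX1, 3030 bp at IRF8 and 2520 bp at ZNF217.

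Of the 5 receptor genes in the retinoic acid list, RARA and RXRA had an intronic member with no H3K27ac in DMSO, and RARB, RARG and RXRB were not nearest to a member. At RARA, which encodes the receptor bound by all-trans retinoic acid (chr17:40338284-40338532), H3K4me2 covered 249 and 191 bp and H3K27ac 249 and 249 bp in Corin. At RXRA, its partner (chr9:134409385-134410173), they covered 660 and 536 bp and 474 and 327 bp. The regions are 249 and 789 bp wide and lie 2856 and 30090 bp from the gene starts.

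Receptors of myeloid cells had members with mixed acetylation in DMSO. CSF1R, the receptor of macrophage colony-stimulating factor, had 270 and 199 bp of H3K4me2, 270 and 270 bp of H3K27ac in Corin, and 268 and 0 bp in DMSO. CCR2, a receptor for monocyte chemokines, had 541 and 209 bp, 541 and 521 bp, and 355 and 0 bp in the same order. CXCR4, the receptor that holds cells in the marrow, had a member 134400 bp away with 504 and 269 bp, 504 and 504 bp, and 0 and 504 bp. P2RY2, a nucleotide receptor, had 358 and 375 bp and 354 and 293 bp, and none in DMSO. The H3K4me2 peaks of Corin 2 at CCR2, CXCR4, P2RY2 and CSF1R ranked at percentiles 0.1, 4.9, 8.6 and 42.4 of that list. Of the 23 members named from the lists, 8 had H3K27ac in no DMSO list, 10 in 1 and 5 in both.

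The cytokine feedback genes CISH and PIM1, both targets of STAT5, and IL10RA, the receptor of interleukin 10, made up that list's 3. CISH had 2 members, and that with the longer shared stretch had 312 and 492 bp of H3K4me2, 463 and 492 bp of H3K27ac in Corin, and 0 and 464 bp in DMSO. PIM1, a kinase, had 684 and 540 bp and 940 and 518 bp, and IL10RA 588 and 565 bp and 278 and 262 bp, both with no H3K27ac in DMSO. Among granule genes, MPO, the neutrophil peroxidase, had an exonic member with 366 and 496 bp of H3K4me2, 285 and 432 bp of H3K27ac in Corin and 211 and 26 bp in DMSO. LYZ, lysozyme, had 2 members. That with the longer shared stretch had 394 and 360 bp, 394 and 388 bp, and 0 and 394 bp, and the other had 551 and 400 bp, 383 and 265 bp, and none in DMSO. The second member of CISH had H3K27ac in both DMSO lists.

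At the starts of the 624 nearest genes H3K4me3 differed little. Within 1 kb of these starts, H3K4me3 peaks covered 744 and 723 kb in Corin 1 and 2 and 692 and 722 kb in DMSO 1 and 2. The log2 ratio of the means was 0.05 (SD of the difference 0.05, n = 2 per group), or 1.04-fold. The Corin values lay above the DMSO values, with Corin 2 and DMSO 2 nearly equal, and the exact two-sided permutation test gave p = 0.33, the smallest possible with 2 libraries against 2, so the design cannot reach 0.05. Over all protein-coding genes the log2 ratio was also 0.05. H3K4me3 was present in all 4 lists at 437 of these genes and in none at 146.

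Gene by gene, 478 of the 624 had H3K4me3 at the start in at least 1 list. Both Corin lists exceeded both DMSO lists at 98 (20.5%) and lay below both at 53 (11.1%), beside 20.4% and 9.45% of all genes with the mark. H3K27ac at the starts was higher in both Corin lists at 260 of 468 (55.6%) and lower at 1 (0.214%), beside 46.5% and 0.825%. For H3K4me2 the counts were 122 of 552 higher (22.1%) and 81 lower (14.7%), beside 20.0% and 10.5%. Total H3K27ac at these starts was 630 and 559 kb in Corin and 343 and 418 kb in DMSO, 1.56-fold, where all genes had 1.57-fold. H3K4me2 came to 973 and 923 kb against 869 and 975 kb, 1.03-fold as for all genes. In total length, the starts of the nearest genes were close to the whole set of genes for all 3 marks.

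Among the 98 genes with more H3K4me3 in both Corin lists, RBM47 had the largest difference in mean length and CCR2, named from the lists, the fifth largest. Between them lay ENSG00000260861, TBXAS1 and FEZ1, which, like the genes named for less H3K4me3, were named after their values were seen. TBXAS1, the thromboxane synthase gene, had 665 and 1053 bp in Corin and 0 and 0 bp in DMSO. Among the 53 genes with less in both Corin lists, the 5 largest differences were at ZNF521, DNAJB1, GFOD1, TXN2 and HAPSTR1, with 1456 and 992 bp in Corin and 1700 and 1718 bp in DMSO at ZNF521, a zinc finger gene. At RBM47, with 4 members, H3K4me3 within 1 kb of the starts was 1473 and 1360 bp in Corin and 0 and 0 bp in DMSO, and H3K4me2 2636 and 2545 bp against 1826 and 1892 bp. At CCR2 H3K4me3 was 805 and 792 bp in Corin and 0 and 239 bp in DMSO, and H3K27ac 1990 and 1685 bp against 1139 and 1583 bp. The groups do not overlap in these 4 measures, while H3K27ac at RBM47, 355 and 0 bp in Corin and 0 and 0 bp in DMSO, overlapped. Of the 25 list genes nearest to a member, H3K4me2 at the starts was higher in both Corin libraries at 4 (LYZ, CCR2, C3AR1 and NCF4), lower at 5 (GFI1, MYB, CDK6, CXCR4 and CISH) and overlapping at 16. All genes with the mark had 20.0% higher and 10.5% lower. For H3K27ac 17 of the 25 were higher, 0 lower and 8 overlapping, beside 46.5% and 0.825% of all genes with it. For H3K4me3 the counts were 6, 3 and 16, beside 20.4% higher and 9.45% lower. At LYZ H3K4me2 was 2006 and 1945 bp against 1341 and 1305 bp, and at CXCR4 2736 and 2712 bp against 4517 and 4509 bp. H3K4me2 was 768 and 1531 bp against 2417 and 3881 bp at GFI1 and 484 and 523 bp against 725 and 1052 bp at MYB. Of the 21 genes with at least 3 members, H3K4me3 at the starts was higher in both Corin libraries at 6, lower in both at 5 and overlapping at 10. Among the 8 of them named by the rule, it was higher at RBM47 and at RREB1, with 2271 and 2303 bp against 1839 and 2139 bp at RREB1. It was lower in both at LYST (1464 and 1713 bp against 1865 and 1733 bp), ELF1 (996 and 1063 bp against 1229 and 1240 bp) and, by a small margin, RASA3 (1270 and 1282 bp against 1290 and 1294 bp). The groups overlapped at GPCPD1 and EFCAB2, and GSDMC had no H3K4me3 there in any library.

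The base composition of the members was ordinary and their CpG content low. In 500 bp windows centred on the regions the median GC content was 46.0%, equal to the 46.0% of regions gained without H3K27ac and near the 46.4% of all distal regions. The median ratio of observed to expected CpG was 0.177, against 0.222 for regions gained without H3K27ac, 0.233 for those in all 4 lists and 0.231 for all distal regions.

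For each motif the members were set beside the other 3 groups. The members had the highest share of the 4 groups for PU.1, C/EBP, STAT and GFI1 and the lowest for RUNX, NF-kB, HOX-PBX, ISRE (AAANNGAAA) and ETS (ACCGGAAGT), in several cases by a small margin. PU.1 (GAGGAAGT) was in 11.2% of the members' windows, beside 9.52% of regions gained without H3K27ac, 9.05% of those in all 4 lists and 8.72% of all distal regions. RUNX (TGTGGTT) was in 11.9%, against 19.8%, 15.0% and 15.6%. GFI1 was in 3.54%, against 3.09%, 1.15% and 1.83%, so its share was similar in both kinds of gained region. AP-1 was in 26.8%, against 30.0%, 22.4% and 24.7%, so the members lay below the regions gained without H3K27ac. The nuclear receptor hexamer was in 35.0%, against 37.2%, 30.9% and 31.8%, and C/EBP in 31.5%, against 30.7%, 30.0% and 29.6%. STAT was in 17.8%, against 16.2%, 16.3% and 15.9%, and NF-kB in 5.04%, against 6.09%, 6.80% and 6.38%. In 250 bp windows the members and all distal regions had 7.08% and 4.79% for PU.1, 5.45% and 8.33% for RUNX and 1.77% and 0.945% for GFI1. STAT turned there, with 7.90% and 8.36%, as did HOX-PBX by a small margin, with 3.95% and 3.90%. C/EBP had nearly equal shares. When windows with letters typical of Alu repeats, described after the plot of motif shares, were left out, C/EBP was in 31.6% of the members and 32.2% of regions gained without H3K27ac, so the members no longer ranked highest. Motifs that share letters can overlap, and all shares are descriptions with no test.

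**Figure D5:**
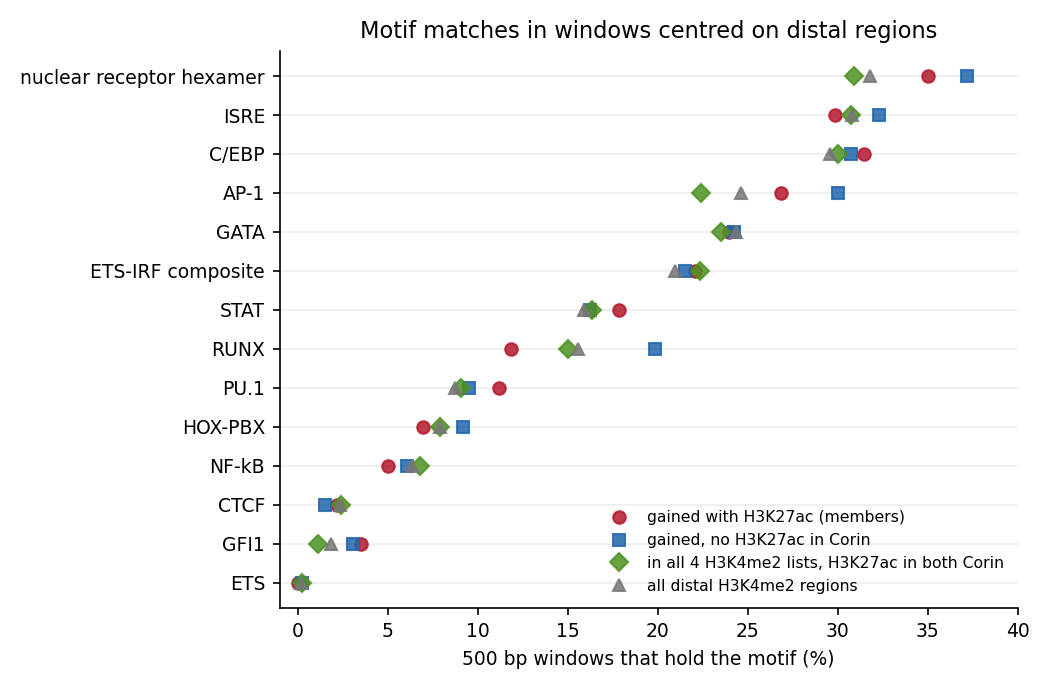
Percent of 500 bp windows, centred on the regions, that hold each of 14 motifs on either strand (x axis), for the 734 members and the 3 groups compared. RUNX lies lowest in the members (11.9%) and highest in regions gained without H3K27ac (19.8%), PU.1 lies highest in the members (11.2%), and GFI1 is higher in both gained groups than in the other 2.

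The GFI1 motif was least frequent in members with H3K27ac in both DMSO lists, and it was not the only motif with this order. It was in 16 of the 335 members with no H3K27ac in DMSO (4.78%), in 9 of the 232 with H3K27ac in 1 list (3.88%) and in 1 of the 167 with it in both (0.599%). AP-1 had shares of 27.2%, 31.9% and 19.2% in the same order. Shares also fell for NF-kB (6.57%, 4.74% and 2.40%), HOX-PBX (7.76%, 6.90% and 5.39%) and CTCF (2.99%, 1.72% and 1.20%). That of GATA rose (22.4%, 24.6% and 26.3%). Some GFI1 matches lay in windows with letters typical of Alu repeats, whose consensus resembles the motif. Windows with either of the letters GGGATTACA or CTCACTGCA, searched on both strands, made up 155 of the members (21.1%), beside 21.7% of regions gained without H3K27ac, 12.7% of those in all 4 lists and 15.1% of all distal regions. Without such windows GFI1 was in 19 members (3.28%), against 2.68%, 0.918% and 1.59%, and in 12, 7 and 0 members with H3K27ac in 0, 1 and 2 DMSO lists. The order of the groups was the same with and without these windows, and the letters find only part of the repeats.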

How the data were processed

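Positions and scores of peaks in 12 libraries (H3K4me2, H3K27ac and H3K4me3, Corin and DMSO, 2 each) were used. The authors deposited 1 list per library, without a header. Each peak's deposited score is an integer, 50 or more, whose definition is not given in the sources used here, and it served only to rank and filter peaks within a list. Per the submitters' processing notes, Trim Galore, Bowtie2, Picard and MACS2 and the build GRCh38/hg38 were used. Against hg38 chromosome lengths, 0 of 292523 peak ends were out of range. Control, threshold and versions are not given in the sources used here.

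Touching or overlapping H3K4me2 peaks were merged, and presence in a list meant an overlap of 1 bp or more. Starts and genes came from GENCODE release 44 (basic set) and sequence from hg38. Positions count from 1. Motifs were searched in 500 bp windows centred on the regions. Python 3.11.15, numpy 2.4.6, scipy 1.17.1 and matplotlib 3.10.9 were used, and the counting was tested on simulated data. The members, gene lists, motifs and naming rules were chosen with earlier results of these data known. Named regions are the 12 members with the longest stretch shared by the 4 Corin peaks, at most 1 per nearest gene. Named genes are up to 4 per list by that length and 8 genes ranked by number of members, ties by the longest shared stretch. Sequence was read for the first 8 named regions that were eligible, and those of the regions at BLOC1S2 (exonic) and NFE2L2 are not reported here. The markers of myeloid and other cells were a list of 21 genes.

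H3K4me3 was compared by an exact two-sided permutation test over libraries (6 arrangements). At gene starts, the deviations from group means of a Corin and a DMSO library with the same number correlated at 0.252 for H3K4me2, 0.270 for H3K27ac and 0.221 for H3K4me3. Pairing by number was therefore run as an alternative, and the main ratio, SD and test were unpaired. What same-numbered libraries have in common is not labelled. Alternatives were other peak sets, distances, overlaps, merging, windows and the omission of each library. The windows without Alu letters were added after seeing the data.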

Additional observations from a re-analysis of the deposited data

How the results depend on the processing

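The number of members, 734, depended on the peaks and overlaps used. With lists trimmed by score to equal peak numbers within a mark (30896 for H3K4me2, 17599 for H3K27ac and 11104 for H3K4me3) it was 113, of which 103 overlapped the 734. With peaks of a score of at least 100 it was 442, of which 214 did, and with H3K27ac peaks that cover at least 50% of the region 411. It was 594 beyond 5 kb from a TSS, 651 with peaks up to 500 bp apart merged and 500 beyond 2 kb from DMSO H3K4me2. Leaving out 1 library, and asking only for those remaining, gave 934 to 1364, with 1127 and 1262 without H3K4me2 Corin 1 and 2, 1196 without H3K27ac Corin 2 and 1364 without H3K4me2 DMSO 2. A rule with 1 library fewer asks for less. The share of members with H3K27ac in DMSO, 38.6%, was 24.7% where a peak had to cover at least 50% of the region, 35.7% with matched peaks, and 36.5% to 40.6% when either DMSO library was left out. The PU.1 share, 11.2%, was 7.08% in 250 bp windows, where all distal regions had 4.79%.

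For H3K4me3 at the starts of the nearest genes, the log2 ratio with same-numbered libraries paired as a replicate block was 0.05 (exact p = 0.5, the smallest that the pairing allows). It was 0.05 with matched peaks, 0.06 with scores of at least 100, 0.10 within 5 kb of the starts and 0.02 to 0.08 without each library, higher in Corin in each. H3K4me3 of the members was 0 bp in each library under every alternative run, so no ratio, block or test could be formed for it. Depth is unknown, so a peak missing in DMSO may be a peak just below the calling threshold.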

Other observations

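The members were unevenly spread over the chromosomes. Chromosome 8 held 69 (9.40%), where it held 5.27% of all distal regions, 6.56% of those gained without H3K27ac and 6.85% of those in all 4 H3K4me2 lists. Of these 69, 27 had no H3K27ac in DMSO. Chromosome 1 also held 69 (9.40%), near its 9.55% of distal regions. Chromosome 3 held 56 (7.63% against 5.84%) and chromosome 6 held 63 (8.58% against 6.96%). Chromosome X held 9 (1.23% against 2.56%). MOLM-13 is known for extra copies of chromosome 8, and the part of copy number in these shares was not tested.

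Further clusters of 3 members lay at other genes. SRGN, the granule proteoglycan serglycin, had 3 members over 37.2 kb, 1 of them without H3K27ac in DMSO. SAMHD1, a nucleotide hydrolase of myeloid cells, had 3 over 74.6 kb, 2 of them without. DIP2B, also with 3, held 2 without in 13.0 kb, as did SASH1 in a shorter span. TMEM65 had 3 over 34.7 kb, and all 3 had no H3K27ac in DMSO. The clusters of 3 at SLC45A4 and GPR20 and at C3orf18 and CISH each had 1 without, and that at MAP1LC3B2 and SPRING1 had 0, as did that at LYST. These genes were named after their values were seen.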
